A study of Brachypodium distachyon with 8 samples.

Results

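Small RNAs at 3′ UTRs were compared between leaves of Brachypodium distachyon plants under salt for 48 h and leaves of unstressed plants. The 3′ UTR is the part of a transcript after its coding sequence, and each identifier in the counts, a transcript model, is called a locus here. A locus entered when its reads in the 8 libraries of the series came to 40 or more, which held for 18191 of 30815 loci, from 13130 of 24118 genes. Next to that limit, 183 loci had exactly 40 reads and 131 had 1 read fewer. The plants were Bd21, a diploid inbred line that serves as a community standard for this model grass. They were grown in soil at 22 °C with 16 h of light and 8 h of dark. For salt, the soil was saturated with 300 mM NaCl, and the temperature during those 48 h is not stated separately. The 6 other libraries, used here as values beside the 2 compared, came from plants kept at 4 °C (6 h and 24 h), at 42 °C in air (1 h and 3 h) or in water of 42 °C (1 h and 3 h). Each condition is 1 library, so each difference is between 2 libraries, has no replicate check and no p-value, and its interval covers counting error only.

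Plant small RNAs are cut from double-stranded RNA by Dicer-like enzymes, and the enzyme sets the length. In Arabidopsis DCL1 makes most microRNAs, typically 21 nt long, DCL4 makes 21 nt short interfering RNAs, DCL2 makes 22 nt ones, and DCL3 makes the 24 nt ones that guide DNA methylation. Fragments of RNA made in other ways have no such fixed length, which is why read length is the first property by which plant small RNAs are sorted. Salt is a stress of water uptake and ion balance, and small RNAs are among the regulators known to respond to it in plants.

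The counts gave 3642238 reads at 15765 loci without stress and 1730029 reads at 24272 loci under salt. The 10 most abundant loci over the 8 libraries held 89.9% of reads without stress and 49.6% under salt, which left 367188 and 872647 reads elsewhere. In the 6 other libraries these 10 loci held 38.9% to 71.3%, and 20883 to 26825 loci had reads. Levels were therefore scaled with TMM, a trimmed mean of log ratios between libraries. By TMM the size of the salt library against the unstressed one was 6.87 times that given by the totals of the 18191 loci, a shift of 2.78 on the log2 scale, and 2.76 against the totals over all loci. The same factor against the unstressed library was 3.61 to 9.3 for the 6 other libraries. Whole numbers in the tables were also more often even under salt. Cells, each the count of 1 locus at 1 length, held 2 reads 2.37 times as often as 1 read under salt, 1.05 times as often without stress, and 1.7 to 2.65 times in the 6 other libraries. The labels' protocols name 2 kits for making libraries without saying which library used which, so kit and condition cannot be told apart. In bulk leaf RNA, fewer cells of a type and less RNA per cell cannot be told apart either. The leaf label was not checked against marker genes, because the identifiers are not paired with gene names, and no gene functions are given for the same reason.

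Read lengths differed between the libraries at 3′ UTRs as a whole. Over all reads, 20 nt was the commonest length without stress, at 40.8%, and 24 nt was the commonest under salt, at 15.1%. Reads of 24 nt made up 3.33% without stress and 9.57% to 27.6% in the 6 other libraries. Reads of 25 to 41 nt made up 14.8% without stress and 29.7% under salt, and reads of 20 to 23 nt 51.4% and 27.1%. In the 6 others the shares of these 2 classes were 24.1% to 47.8% and 20.7% to 25.5%. Reads of 22 nt were 3.11% and 7.91% of all reads. Under salt Bradi4g12040.1 held 23.2% of them, and Bradi4g12040.2, whose counts are identical, held another 23.2%. Much of the unstressed profile was therefore that of few loci, so the profile was taken again without them. Outside the 10 most abundant loci, 24 nt was the commonest length in both libraries, at 24.0% without stress (95% interval 23.8 to 24.1) and 27.0% under salt (26.9 to 27.1). Reads of 21 nt were 12.9% (12.8 to 13.0) and 8.23% (8.17 to 8.29) there, and reads of 15 nt 13.6% and 6.4%. There were 1.86 reads of 24 nt for each read of 21 nt without stress (1.84 to 1.88), and 3.28 under salt (3.26 to 3.31). The same ratio was 2.37 to 4.21 in the 6 other libraries. Outside the 100 most abundant loci this ratio was 2.11 without stress and 3.78 under salt. The 24 nt share itself was then lower under salt, at 35.3% against 38.3%.

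With every locus given the same weight, abundant loci no longer set the profile. At the 2295 loci with 20 or more reads in each of the 2 libraries, the mean 21 nt share of a locus was 19.9% without stress and 12.1% under salt. The mean 24 nt share was 42.6% and 48.0%, and the mean share of 25 to 41 nt reads 8.41% and 13.6%. For 22 nt the means were 3.14% and 3.15%. The 2102 loci with 20 or more reads in all 8 libraries place both libraries among the rest. There the unstressed mean 21 nt share of 19.5% was the highest of the 8, while salt, at 12.1%, lay within the 11.9% to 14.6% of the 6 other libraries. The unstressed mean 24 nt share of 43.7% was the lowest of the 8, and salt, at 49.1%, again lay within the 47.4% to 52.6% of the others. Longer reads were different. The mean share of 25 to 41 nt reads was 13.2% under salt, the highest of the 8, against 8.32% without stress and 7.83% to 9.95% in the others. The mean share of 20 to 24 nt reads, the sizes Dicer-like enzymes make, was 74.7% under salt, the lowest of the 8, against 78.8% without stress and 76.5% to 81.5% in the others. At these loci the unstressed library thus lay outside the range of the 7 others at 21 nt and 24 nt, and the salt library lay outside it in reads above 24 nt. Cells of 25 to 41 nt were also where even counts were commonest under salt, at 73.3% against 57.2% of 24 nt cells. Without stress those shares were 58.2% and 50.6%. The part of even counts in the length differences was not tested.

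**Figure D1:**
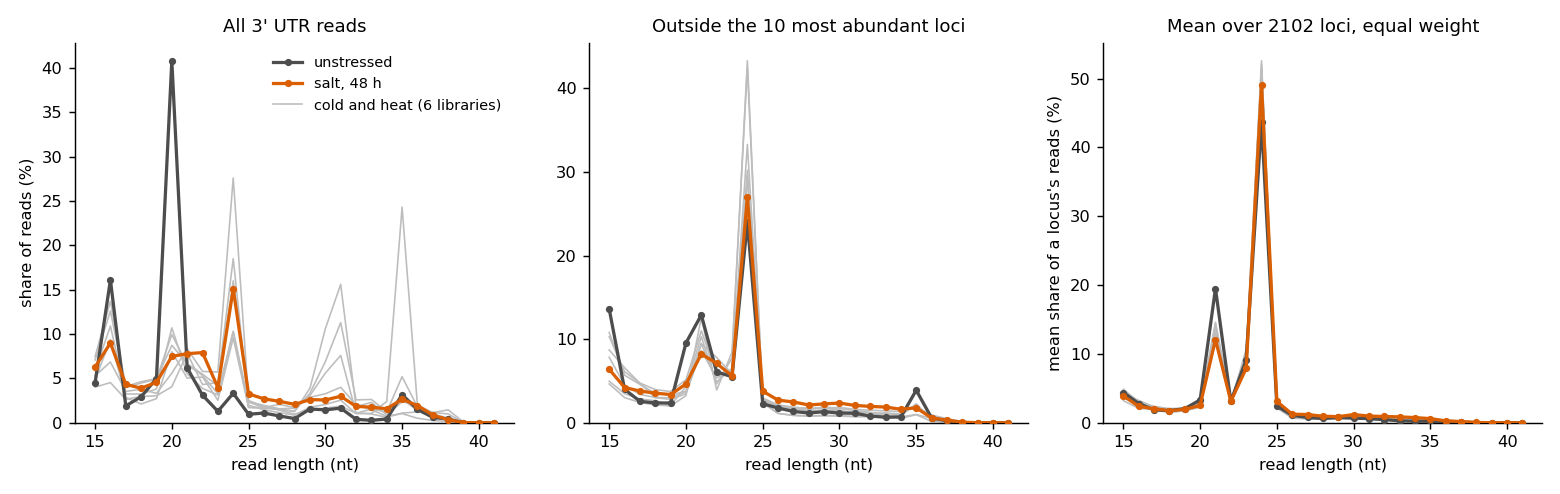
Share of reads (%) at each read length (nt) in the salt library (orange), the unstressed library (dark) and the 6 cold and heat libraries (grey), over all 3′ UTR reads, outside the 10 most abundant loci, and as the mean over 2102 loci of equal weight. The unstressed line peaks at 20 nt over all reads, and in the right panel its 21 nt point of 19.5% lies above all other libraries while the salt point is 12.1%.

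Shares within a locus do not depend on how libraries are scaled. A share was called different where the exact 95% intervals of the 2 libraries did not overlap and the shares differed by 10 percentage points or more. The 24 nt share was higher under salt at 309 of 2295 loci (13.5%, from 235 genes) and lower at 117 (5.1%, from 83 genes), and its median was 46.4% without stress and 54.2% under salt. The 21 nt share was higher at 50 loci (2.18%) and lower at 325 (14.2%, from 217 genes), with medians of 10.3% and 5.91%. For 20 to 24 nt together, the share was higher at 68 loci (2.96%) and lower at 205 (8.93%, from 132 genes), with medians of 88.6% and 84.4%. In all 3 measures 1 direction held more loci than the other, and most loci had shares that were not told apart at these depths.

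Loci were then grouped by their leading length class, which is the class that held most of a locus's reads on average in the 6 other libraries, so that neither compared library sets it. Where 20 to 23 nt reads led, the median 21 nt share was 52.5% without stress and 28.2% under salt, and the 21 nt share was lower under salt at 105 of 374 loci (28.1%) and higher at 16 (4.28%). At loci led by 24 nt reads the median 24 nt share was 59.0% and 66.0%, and the share was higher at 263 of 1575 loci (16.7%) and lower at 89 (5.65%). Their median 21 nt share was 10.0% without stress and 5.26% under salt. At the 224 loci led by 15 to 19 nt reads and the 122 led by 25 to 41 nt reads, the median 21 nt and 24 nt shares stayed at or below 5.77% in both libraries. Of the 309 loci with a higher 24 nt share, 263 were thus led by 24 nt reads and 40 by 20 to 23 nt reads.

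**Figure D2:**
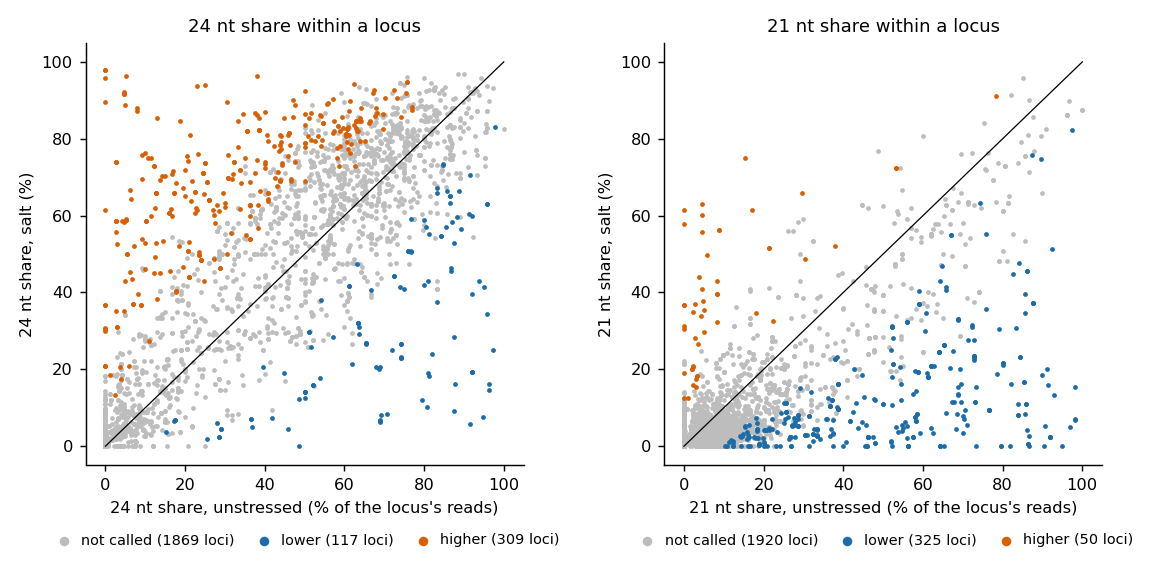
Each point is 1 of the 2295 loci with 20 or more reads in both libraries, with its 24 nt share (left) or 21 nt share (right) in percent of its reads, unstressed on the horizontal and salt on the vertical axis. For 24 nt, 309 orange loci lie above and 117 blue loci below the line of equal shares, and for 21 nt 50 lie above and 325 below.

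The commonest length itself often differed. Ties were given to the shorter length and were not counted, and no interval was required for a difference. The commonest length was the same in both libraries at 1632 of the 2295 loci (71.1%). Reads of 24 nt were the commonest at 1378 loci without stress and at 1650 under salt, and reads of 21 nt at 475 and 266. At 219 loci (153 genes) the commonest length was 21 nt without stress and 24 nt under salt, and at 24 loci (19 genes) it was the reverse. The 219 loci had a median of 37.0 reads without stress and 72.0 under salt, and 185 of them differed in their counts from one another. At 213 loci 21 nt was the commonest length in both libraries. Among the 219 loci with 20 or more reads in a given library, 24 nt was the commonest length at 142 of 218 loci (65.1%) after 6 h of cold, the lowest share, and at 184 of 218 (84.4%) after 3 h of heat in air, the highest. The 4 other libraries lay between. These loci were picked on the 2 compared libraries, and in each of the 6 others 24 nt was the commonest length at most of them. The 24 loci of the reverse kind also had 24 nt as the commonest length in each of the 6 others more often than not, at 56.5% to 66.7%. At the 213 loci with 21 nt commonest in both compared libraries, 24 nt led at 16.7% to 37.3% in the 6 others. At the 1303 loci with 24 nt commonest in both, it led at 93.3% to 97.0%. The same share over all 2295 loci was not counted in the 6 others.

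Over all lengths, 764 loci from 501 genes were higher under salt (4.2% of 18191) and 628 from 453 genes were lower (3.45%), where called means that the whole 95% interval of the TMM-scaled ratio lay beyond 2-fold. Under total scaling 11747 were higher and 26 lower. Of the higher loci 397 had 0 unstressed reads, and the 367 others had a median 8.69-fold higher level. Of the lower loci 52 had 0 salt reads, and the 576 others had a median 5.27-fold lower level. Over all 18191 loci, 4462 had 0 unstressed reads and 351 had 0 salt reads. In the 6 other libraries 45 to 1305 of them had 0 reads. The higher loci were sparse, with a median of 54.0 reads under salt and 0 without stress, and the lower loci had medians of 26.0 and 46.0. A locus with 0 reads in one library needed 26 salt reads or 4 unstressed reads to be called. A read may count at several identifiers, which the sources do not state. Of the 764 higher loci 158, and of the 628 lower loci 130, had the same counts at every length as another identifier. This held for 3590 of all 18191 loci, a similar share. Among genes with higher and with lower loci, 168 and 102 had more than 1 called identifier. At the 2295 loci with 20 or more reads in both libraries the median log2 ratio was -0.68, with the 10th percentile at -1.81 and the 90th at 0.36. Of these loci 62.0% had a ratio within 2-fold. By TMM the salt library was 3.22 times the size of the unstressed one. A limit of 20 reads in both therefore favours loci with high unstressed reads, and their median is not that of all loci.

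**Figure D3:**
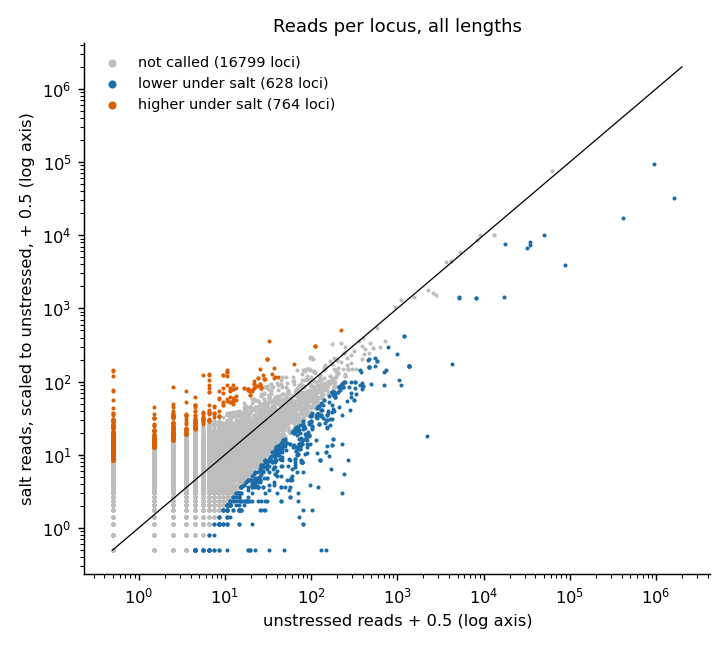
Reads per locus over all lengths for the 18191 loci, unstressed on the horizontal axis and salt scaled by TMM to the unstressed library on the vertical axis, both with 0.5 added and on log axes, with the line of equal levels. The 764 higher loci (orange) lie mostly at few or no unstressed reads, and the most abundant loci lie near or below the line.

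In the 6 other libraries, reads of most higher loci were spread over many lengths. In the share held by the commonest length, the lower loci were much nearer to all loci than the higher loci were. The median share of 20 to 24 nt reads in those libraries was 28.1% for loci higher under salt, 79.5% for loci lower under salt and 52.1% over all 18191. The median share of 25 to 41 nt reads was 32.9%, 4.77% and 14.9% for the same 3 sets. Where a locus had 100 or more reads in those libraries, its commonest length held a median of 12.7% of reads for the higher loci (671 loci), 54.3% for the lower loci (548) and 48.2% over all (10732). Loci whose commonest length held under 15% were 63.9% of those higher loci, 14.6% of the lower and 20.2% over all. Those whose commonest length held 50% or more were 7.0%, 57.1% and 48.0% of the same 3 sets. Median levels of the called loci in the other libraries lay between those of the 2 compared. The loci were picked on a gap between those 2 libraries, so the pick itself favours this order. The higher loci had a median TMM-scaled level of 0 without stress, 16.8 under salt and 4.63 to 8.7 elsewhere, and the lower loci 46.0, 8.07 and 11.9 to 14.7. The same medians over all 18191 loci were 3.0, 4.96 and 3.58 to 4.7.

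By leading class, loci led by reads above or below the Dicer sizes were more often called higher than lower. Of 2579 loci led by 25 to 41 nt reads, 235 were higher (9.11%) and 46 lower (1.78%), and of 5845 led by 15 to 19 nt reads, 390 were higher (6.67%) and 181 lower (3.1%). Both classes held more higher than lower loci under all 5 scalings tried. Of 7602 loci led by 24 nt reads, 71 were higher (0.934%) and 280 lower (3.68%), which turned to 175 and 111 when libraries were scaled by reads outside the 10 most abundant loci and to 4629 and 2 by total reads, and came to 144 and 150 with TMM on 20 to 24 nt reads. Of 2165 loci led by 20 to 23 nt reads, 68 were higher (3.14%) and 121 lower (5.59%), which turned to 148 and 74, 119 and 79, and 1377 and 0 under the scalings by reads outside the 10 loci, TMM on 20 to 24 nt reads and total reads. Loci led by 25 to 41 nt reads had the highest share of higher loci of the 4 classes under each of the 5 scalings. Loci with 20 or more reads in both libraries, a limit that favours high unstressed reads, had median log2 ratios below 0 in every class. These were -0.96 where 15 to 19 nt reads led, -0.82 for 20 to 23 nt, -0.64 for 24 nt and -0.47 for 25 to 41 nt. The classes differed in depth, so they were also set side by side at 50 to 99 reads over the 2 libraries. There 38.6% of loci led by 25 to 41 nt reads and 32.8% of those led by 15 to 19 nt reads were higher, against 1.4% of those led by 24 nt reads and 2.42% of those led by 20 to 23 nt reads. At 500 or more reads, with 174 loci in all, lower loci outnumbered higher ones in every class: 2.7% of loci led by 25 to 41 nt reads were higher and 18.9% lower, and 15.1% and 43.4% of those led by 15 to 19 nt reads. Even counts were commonest in the same classes under salt, at 73.3% of 25 to 41 nt cells and 67.3% of 15 to 19 nt cells, and their part in these calls was not tested. With all counts halved, 236 loci were higher and 359 lower in all.

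A second view counted only the reads of 1 length class at each locus, over loci with 40 or more such reads in the 8 libraries. Reads of 25 to 41 nt were higher at 339 of 5358 loci (6.33%) and lower at 87 (1.62%), in that direction under all 5 scalings. Reads of 20 to 23 nt were higher at 82 of 7934 loci (1.03%) and lower at 615 (7.75%), a direction that turned under total scaling alone, to 2673 and 30. Within that class, 21 nt reads were higher at 43 of 3537 loci (1.22%) and lower at 521 (14.7%), which turned to 769 and 65 under total scaling. Reads of 20 nt were higher at 5 of 779 loci (0.642%) and lower at 80 (10.3%), those of 22 nt at 5 (0.504%) and 75 (7.56%) of 992, and those of 23 nt at 11 (0.314%) and 147 (4.2%) of 3499, and each of these directions turned under total scaling alone. Reads of 24 nt were higher at 124 of 8295 loci (1.49%) and lower at 273 (3.29%), which turned to 223 and 155 with scaling by reads outside the 10 loci, to 197 and 171 with TMM on 20 to 24 nt reads and to 4065 and 16 by total reads. Reads of 15 to 19 nt were higher at 146 of 7543 loci (1.94%) and lower at 296 (3.92%), which turned to 281 and 175, 246 and 205, and 2958 and 32 under the same 3 scalings. Where both libraries had 10 or more reads of the class, the median TMM-scaled ratio of salt to unstressed was 0.698 for 24 nt (1835 loci), 0.396 for 21 nt (541 loci) and 0.634 for 25 to 41 nt (295 loci). By TMM the salt library was 3.22 times the size of the unstressed one, so that limit favours loci with high unstressed reads. These medians hold for such loci and not for each class as a whole.

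**Figure D4:**
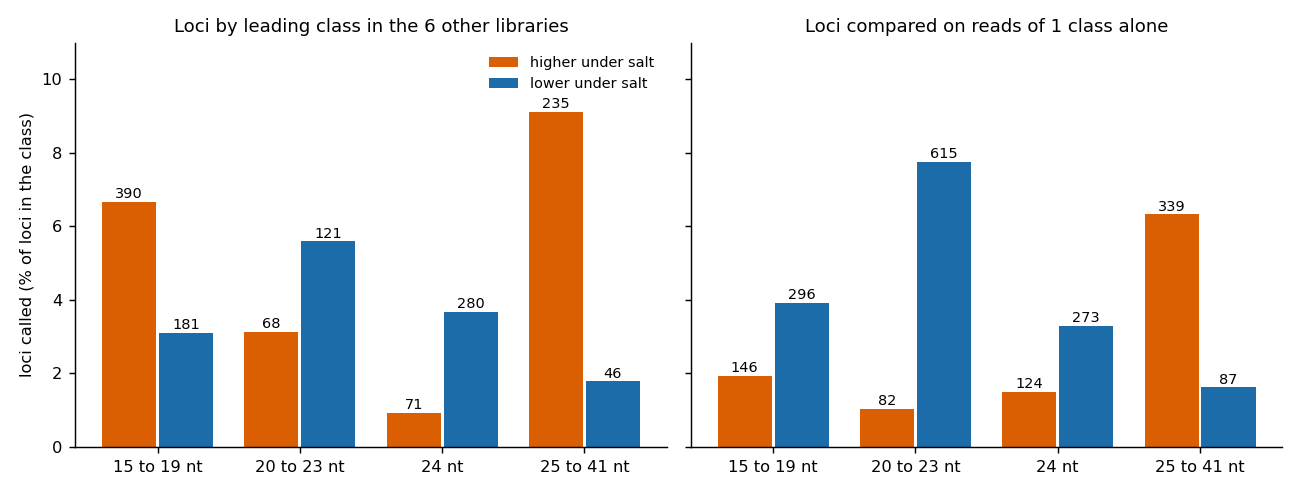
Loci called higher (orange) or lower (blue) under salt, in percent of the loci in each length class, with the number of loci on each bar: on the left loci by the class that led in the 6 other libraries, on the right loci compared on reads of 1 class alone. Higher bars exceed lower bars for 25 to 41 nt in both panels under all 5 scalings, while for 24 nt in both panels, 20 to 23 nt on the left and 15 to 19 nt on the right the direction turned under some scalings, and for 20 to 23 nt on the right under total scaling alone.

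Single loci made up much of each library. Counts are per locus and not per length of the 3′ UTR, so loci are described by their own values in the 8 libraries. Bradi1g05790.1 had 1602543 reads without stress and 104270 under salt, 44.0% and 6.03% of the reads, and 5.88% to 27.1% in the 6 others. Its TMM-scaled level was 49.5-fold lower under salt (49.2 to 49.9), and it was lower under total scaling too. Scaled to the unstressed library, its level was 1602543 without stress, 32344 under salt and 27445 to 168763 in the 6 others. The salt level lay within the range of the 6 others, and the unstressed level lay above it. The mix of lengths differed too: 20 nt reads were 81.4% without stress and 33.1% under salt, while those of 36 nt were 3.27% and 23.8%. In reads of 20 to 23 nt alone, 1308498 without stress and 35092 under salt, it was the locus ranked first among the lower ones, 120-fold lower (119 to 121). In the 4 heat libraries 20 nt reads were 57.7% to 69.8% of this locus, and in cold 35 nt was the commonest length, at 82.5% after 6 h and 47.0% after 24 h. The commonest length in the salt library was still 20 nt, with a share between those in heat and in cold. The salt share at 35 nt, 16.9%, was above that in heat (at most 8.95%) and below that in cold, and the 36 nt share of 23.8% was the highest of the 8 libraries, with 16.7% after 24 h of cold and 11.4% or less elsewhere.

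Bradi4g27190.1 had 954473 reads without stress and 302884 under salt, 26.2% and 17.5% of the reads, and 13.1% to 19.2% elsewhere. The locus was 10.2-fold lower under salt (10.1 to 10.2), but with total scaling its log2 ratio was -0.58 and it was no longer called. Its TMM-scaled level was 93953 under salt and 60069 to 138021 in the 6 others. Its commonest length was 21 nt at 17.7% without stress and 16 nt at 15.3% under salt. In reads of 25 to 41 nt it ranked first among the lower loci, with 162481 reads against 41760, 12.5-fold lower (12.4 to 12.7). Bradi5g10760.1 had 415682 and 55532 reads, 24.1-fold lower under salt, and its 16 nt reads were 97.8% without stress and 62.0% under salt. In the 6 other libraries 16 nt reads were 46.1% to 89.2% of this locus, and it held 11.4% of unstressed reads, 3.21% of salt reads and 0.751% to 5.65% elsewhere. Its TMM-scaled level was 17226 under salt and 4684 to 51488 in the 6 others. Bradi1g05760.1 had 89062 and 12463 reads, 23-fold lower (22.6 to 23.5), with 16 nt reads at 50.6% and 19.7%. Its TMM-scaled level was 3866 under salt and 3342 to 19088 in the 6 others. By the counts at each length in each library, up to 99.7% of its reads could be shared with Bradi4g27190.1. That locus had far more reads, and the same figure was 96.4% for Bradi4g12040.1, so the figure does not show that reads were shared. Bradi5g10760.1, Bradi1g05760.1 and Bradi2g06470.1, the last with 91.9% and 69.2%, thus had a lower share of 16 nt reads under salt, and Bradi4g27190.1 a higher one, 15.3% against 7.23%.

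The other abundant loci were less far apart. Bradi2g06470.1 had 50793 and 31924 reads, 5.13-fold lower by TMM, and a log2 ratio of 0.40 by total reads. Bradi2g13080.1 and Bradi3g27270.1, which could share all reads of the smaller, had 34833 and 34136 reads without stress and 25621 and 23412 under salt. They were 4.38-fold and 4.7-fold lower by TMM, with log2 ratios of 0.63 and 0.53 by total reads. Their commonest length was 31 nt in all 8 libraries, at 35.9% and 36.5% without stress and 28.0% and 30.2% under salt. Bradi5g00200.1 had 62400 and 244223 reads, 1.71% and 14.1% of the libraries, and 5.44% to 12.7% elsewhere, so its share of reads was highest under salt. Its TMM-scaled level was 1.21 times the unstressed one (1.2 to 1.22) and not called, against a log2 ratio of 3.04 by total reads. No length stood out at this locus, where the commonest held 6.74% without stress (19 nt) and 6.71% under salt (21 nt). Bradi4g12040.1 and its second transcript Bradi4g12040.2, with identical counts, had 13232 and 32851 reads, a TMM-scaled ratio of 0.77 (0.755 to 0.786) that was not called and turned to a log2 ratio of 2.39 by total reads. It was the locus with the steadiest length of the 10, with 22 nt reads at 96.7% in both libraries and at 96.1% to 96.9% in the 6 others.

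**Figure D5:**
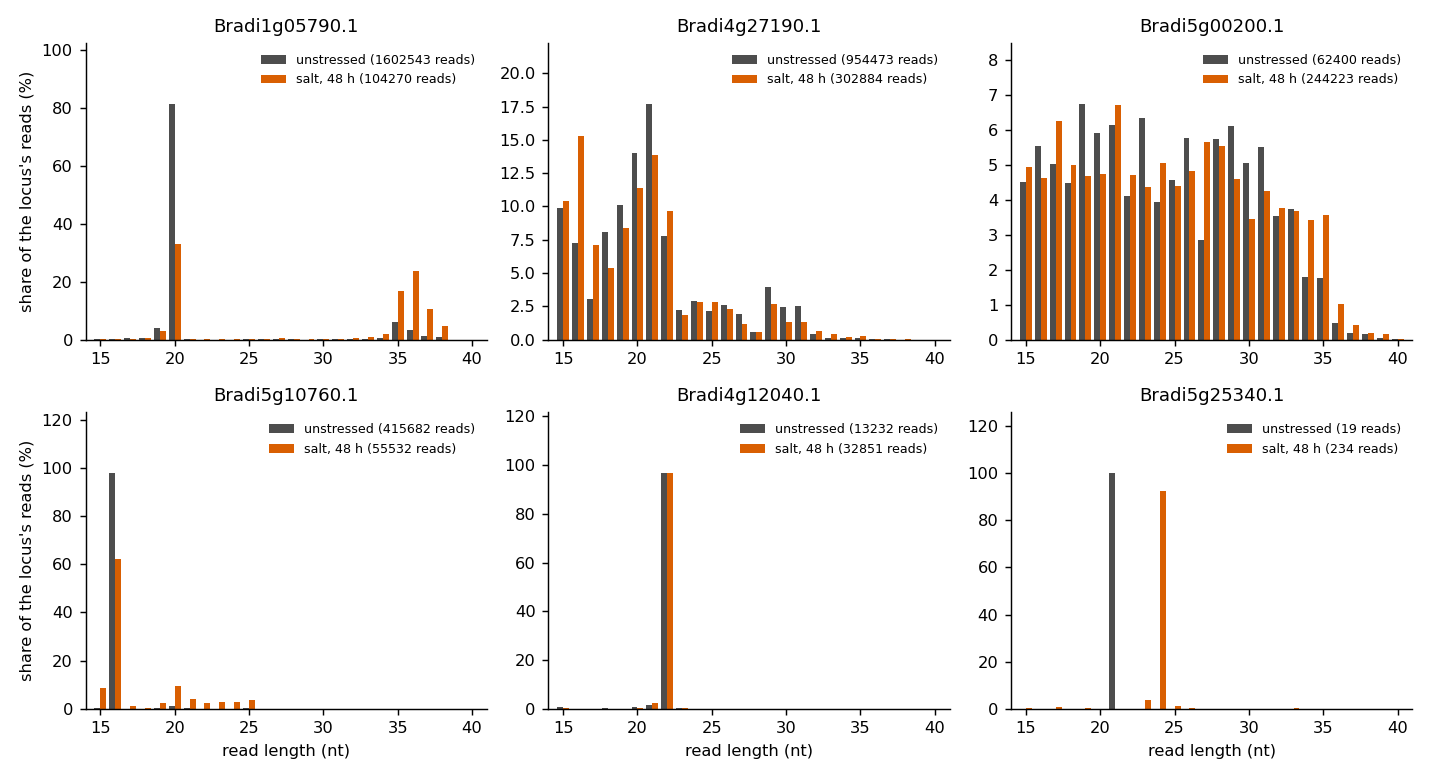
Share of a locus's reads (%) at each read length (nt) for 6 named loci, unstressed (dark) and salt (orange), with the reads behind each in the legend. Bradi1g05790.1 has 81.4% of unstressed reads at 20 nt and 33.1% under salt, Bradi5g00200.1 has no preferred length, Bradi4g12040.1 stays at 22 nt, and Bradi5g25340.1 has 21 nt reads without stress and 24 nt reads under salt.

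Over all lengths, the higher loci ranked first had no unstressed reads. Bradi3g44640.2 had 462 reads under salt and 0 without stress, and 71, 183, 73, 225, 55 and 440 in the cold (6 h, 24 h), heat in air (1 h, 3 h) and heat in water (1 h, 3 h) libraries. Against a floor of 3 reads its level was 47.8-fold higher, and the exact interval began at 38.7-fold. Scaled to the unstressed library, the salt level was 143, that after 3 h of heat in water 103, and the others 10.6 to 34.4. Its commonest length under salt, 17 nt, held 7.79% of reads. It also ranked first among higher loci in reads of 15 to 19 nt (136 against 0, 14.1-fold against the floor). The same held in reads of 25 to 41 nt (223 against 0, 23.1-fold against the floor). Bradi4g17230.1 had 247 reads under salt and 0 without stress, 25.5-fold higher against the floor (interval from 20.6). It had 115, 253, 220, 229, 16 and 18 in the other libraries in the same order. Its reads were spread too, with 20 nt, its commonest length under salt, close to the other lengths. Bradi0012s00200.1 ranked first in reads of 20 to 23 nt, with 99 under salt and 0 without stress, 10.2-fold higher against the floor (interval from 8.17). Over all lengths it had 456 and 10 reads, 14.1-fold higher (7.62 to 29.7), with its commonest length under salt, 17 nt, at 7.68%. Up to 82.6% of the reads of Bradi3g44640.2 and 89.3% of those of Bradi4g17230.1 could be the same as reads of Bradi0012s00200.1, so these 3 are not shown to be separate.

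The lower loci ranked first were of short reads. Bradi3g44720.1 had 150 reads without stress and 0 under salt, and 28, 22, 24, 156, 4 and 30 reads elsewhere. Against the floor it was 161-fold lower by TMM (interval from 129) and 23.7-fold by total reads. Reads of 15 nt were 76.0% of its unstressed reads, and all 150 were of 15 to 19 nt. Bradi4g07590.1 had 128 reads without stress and 0 under salt, and 42, 40, 6, 10, 0 and 8 elsewhere. Against the floor it was 138-fold lower by TMM (interval from 110) and 20.3-fold by total reads. Every read of this locus was 15 nt long in each library that had any. Both were highest in raw reads without stress or, for Bradi3g44720.1, after 3 h of heat in air, and their level after TMM scaling was highest without stress.

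Reads of 24 nt alone gave a pair of loci with strong peaks. Bradi5g25340.1 had 216 reads of 24 nt under salt and 0 without stress, 22.3-fold higher against the floor (interval from 18.0). It had 3, 3, 190, 2, 2 and 123 in the other libraries in the order given above. All 19 of its unstressed reads were 21 nt long (interval 82.4% to 100%), while 92.3% of its 234 salt reads were 24 nt long (88.1% to 95.4%). The 23 nt length was the commonest after 24 h of cold, at 55.4% of 74 reads, and after 3 h of heat in air, at 82.4% of 91 reads. One locus thus gave 21, 23 or 24 nt peaks in different libraries. Bradi3g48510.1, which could share 96.0% of reads with it, had the largest gap in the 21 nt share, 95% of 20 unstressed reads and 0 of 242 salt reads (up to 1.51%), of which 88.8% were 24 nt long. In the other direction, Bradi4g44350.1 had 117 reads of 24 nt without stress and 1 under salt, 377-fold lower (66.4 to 15024), and 6, 9, 337, 6, 4 and 7 elsewhere. Its level over all lengths, 119 against 10 reads, was 38.4-fold lower (20.1 to 82.1). High reads at 24 nt after 1 h of heat in air were thus common to Bradi5g25340.1 and Bradi4g44350.1, which differed in opposite directions under salt.

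Within-locus shares with the widest gaps also rested on few reads. At Bradi4g05970.2, with counts identical to those of Bradi4g05970.3, 23 nt reads were 91.9% of 37 reads without stress and 24 nt reads were 97.9% of 48 reads under salt. In 3 other libraries with 34 or more reads, 24 nt was the commonest length there, at 76.5% to 93.2%. Bradi3g49590.1 had the largest gap the other way, with 24 nt reads at 94.7% of 75 unstressed reads (86.9% to 98.5%) and 7.69% of 26 salt reads (0.946% to 25.1%), where 21 nt reads were 57.7%. In the 6 other libraries 24 nt reads were 70.9% to 95.9% of this locus, and it had 86 to 554 reads there, so salt was the library that stood apart. Bradi1g37890.1 had the widest gap for a higher 20 to 24 nt share, 7.14% of 42 unstressed reads and 90% of 60 salt reads. Its commonest length was 15 nt without stress, at 81.0%, as it was in the 1 h air (38.3%) and 3 h water (28.6%) heat libraries. It was 21 nt under salt (36.7%, equal to the 24 nt share) and after 3 h of heat in air (63.4%), and 24 nt after 6 h and 24 h of cold and 1 h of heat in water, at 62.1%, 47.2% and 86.5%. Bradi1g05790.1 had the widest gap for a lower 20 to 24 nt share, 81.7% without stress and 33.8% under salt.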

How the data were processed

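The deposited tables hold whole-number counts of small RNA reads per transcript model and read length at 3′ UTRs, per the file headers, whose cells are shifted against the columns, so that the length was read from the column running from 15 to 41. Per the labels' protocols, leaf RNA was sequenced on the Genome Analyzer II. CASAVA, Bowtie 0.12.7 and bedtools 2.10.0 are named in the submitters' processing notes, with no role given. The sources used here give no genome build, annotation, strand setting or rule for multi-mapping reads. Whether 1 read counts at several identifiers is therefore not known. Totals of the deposited counts are not the depth of sequencing.

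The salt library was scaled to the unstressed one by TMM, with 30% of log ratios and 5% of mean levels trimmed (Python 3.11.15, numpy 2.4.6, pandas 2.3.3, scipy 1.17.1, figures with matplotlib 3.10.9). The factor of 6.87 was checked against edgeR 4.0.16. Ratios have exact (Clopper-Pearson) 95% intervals of the conditional binomial share, and a locus was called where the interval lay beyond 2-fold. Against 0 reads, a fold was set against a floor of 3 reads in that library. Such a fold is not a minimum, since the exact interval of the ratio reached nearer to no change. Intervals and floors cover counting error only, and they take reads as independent. Amplified reads are not independent molecules, so the intervals can be too narrow.

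Loci named in the text are the 10 most abundant over the 2 libraries, the 2 ranked first by interval bound in each direction over all lengths, and 1 in each direction for each length class and each share. The 10 left out of profiles are the most abundant over all 8 libraries and hold 1 of the 2 identical transcripts of Bradi4g12040. The loci, lists and rules were chosen with earlier results of these data known. A RefSeq table of 31335 genes (assembly Brachypodium_distachyon_v3.0) held a match for 0 of the 24118 genes in the files, so no names, coordinates or sequences are given.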

Additional observations from a re-analysis of the deposited data

How the results depend on the processing

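Of 66 counts and ratios recomputed under alternatives, 30 kept their size and 36 moved, and the causes were not tested. For loci higher and lower under salt, 764 and 628, scaling by total reads gave 11747 and 26 (99.8% of called loci higher in place of 54.9%), by reads outside the 10 most abundant loci 1446 and 324 (81.7%), and by TMM on 20 to 24 nt reads 1257 and 381 (76.7%). Halved counts gave 236 and 359 (39.7%), reads of 20 to 24 nt alone 282 and 339, an interval beyond 4-fold 162 and 149. The lower loci were 364 with 40 reads required in the 2 libraries, 410 with 200 reads over the 8, and 386 with 1 identifier per gene. For higher and lower 24 nt shares, 50 reads per library gave 137 and 50 and halved counts 98 and 28. For 20 to 24 nt shares the same gave 29 and 79, and 24 and 53, and 1 identifier per gene left 130 lower. For 21 nt shares, whose alternatives were chosen after seeing the data, as was counting identical identifiers once, they gave 19 and 138, and 11 and 124, a difference of 20 points left 31 higher, and 1 identifier per gene 216 lower. Each of these alternatives on shares gave more loci on the side that held more at first. The 24 nt to 21 nt ratio with no loci left out was 1.94 under salt and 0.538 without stress, without the 100 most abundant 3.78 and 2.11, and with loci weighted equally 3.97 and 2.14. Log2 ratios turned positive by total reads at Bradi2g06470.1 (0.40), Bradi2g13080.1 (0.63), Bradi3g27270.1 (0.53), Bradi4g12040.1 and Bradi4g12040.2 (2.39 each), and at both Bradi4g12040 transcripts (0.06) by reads outside the 10 loci. No paired analysis was possible because each condition is 1 library. Depth limits calls most for loci with few unstressed reads, where 26 salt reads were needed.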

Other observations

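The identifiers carry a number after Bradi, taken here only as part of the name. Calls over all lengths were spread over these groups: 280 of 5429 identifiers that start with Bradi1 were higher under salt (5.16%) and 174 lower (3.21%), with 4.13% and 3.32% for Bradi2, 4.57% and 3.81% for Bradi3, 3.13% and 4.11% for Bradi4, and 2.0% and 2.62% for Bradi5.

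Beside the move from 21 nt to 24 nt, and with ties again given to the shorter length, 1 nt steps in the commonest length were also unequal. At 52 loci (33 genes) it was 23 nt without stress and 24 nt under salt, and at 21 loci (14 genes) the reverse. At the 52 loci, counting those with 20 or more reads in each of the 6 other libraries, 24 nt was the commonest length at 82.4% to 96.1%, and at the 21 loci of the reverse kind at 61.9% to 85.7%.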
